A study of Mus musculus with 58 samples.

Results

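KRAB zinc finger gene clusters were examined for H3K27ac in full-grown mouse oocytes, over 3 regions of the mm9 genome given by their coordinates. These regions were chosen with earlier results of these data known. They lie on chromosome 2 from 175000001 to 177700000, on chromosome 4 from 145000001 to 147400000 and on chromosome 13 from 65000001 to 67700000. Tiled into windows of 5 kb, they gave 540, 480 and 540 windows, 1560 in all of 527801 on the autosomes and X. The series mapped histone marks in oocytes and preimplantation embryos of the mouse with STAR ChIP-seq, which precipitates chromatin from few cells. It compared, among others, full-grown oocytes labelled Setd2+/- (the control here) with oocytes labelled Setd2-/-, from a maternal knockout of Setd2. The labels give the females as 8 weeks old. The Cre driver, the number of animals and the hormone schedule of the full-grown oocytes were not read from them. H3K27ac was precipitated with 1 antibody in 2 replicates per genotype. Both replicates of a genotype share 1 deposited track, so every value below is the authors' pooled value, no spread between replicates could be measured, and no test was made.

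KRAB zinc finger proteins form a large family of DNA-binding repressors in mammals. An array of zinc fingers reads the DNA, often in a transposable element, and the KRAB domain recruits TRIM28, which brings in SETDB1 and its mark H3K9me3. Their genes lie in clusters that grew by repeated local duplication, so neighbouring genes can be nearly the same in sequence. H3K27ac is an acetylation of histone H3 found at active promoters and enhancers. SETD2 places H3K36me3 over transcribed genes, and H3K9me3 and H3K36me3 have both been reported over the zinc finger exons of such genes in other cell types.

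A short read from a sequence with several copies may match more than 1 position, and the part this plays in the values below was not tested. The likeness of the genes was measured on promoters from RefSeq (GRCm38.p6), each running from 250 bases before to 50 after a gene's start. No coordinate of that build was joined to the tracks, which are in mm9, and no gene is therefore named for any window. Between Edn3 and Phactr3 on chromosome 2 the RefSeq table lists 32 protein-coding genes, of which 31 have a promoter in the sequence table. Between Tnfrsf8 and Miip on chromosome 4 it lists 19, of which 14 have one, and between Mfsd14b and Mtrr on chromosome 13 it lists 48, of which 38 have one. These anchors were chosen to span the clusters, and which of the genes fall inside the mm9 regions was not analysed here. Of these protein-coding genes, 9, 17 and 27 carried a name starting with Zfp, Rsl or Rex2. All protein-coding genes with a promoter were taken, whether or not they encode a KRAB zinc finger protein. Pseudogenes in the same intervals numbered 25, 56 and 48. A stretch of 50 identical bases shared with the promoter of a gene at another place, on either strand, was found for 27 of the 31 genes on chromosome 2 (87.1%), 12 of the 14 on chromosome 4 (85.7%) and 12 of the 38 on chromosome 13 (31.6%). Among all protein-coding genes of the table the share was 10.1% (1772 of 17492).

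The most alike promoters of each interval show the extent of this. On chromosome 2, Gm14434 (chr2:176486700-176486999) and Gm14308 (chr2:176636270-176636569), both on the reverse strand, had the same 300 bases, and each shared 50 bases with promoters of 27 other genes. On chromosome 4, Zfp600 (chr4:146156577-146156876) and Rex2 (chr4:147021600-147021899), both on the forward strand, differed by 2 edits. On chromosome 13, Gm31714 (chr13:65415073-65415372, reverse strand) and Gm46425 (chr13:65950339-65950638, forward strand) differed by 12 edits. All these positions are of GRCm38.p6 and not of mm9. Sequences run 5′ to 3′, and capitals mark bases that differ from the partner or are absent from it.
Gm14434 and Gm14308: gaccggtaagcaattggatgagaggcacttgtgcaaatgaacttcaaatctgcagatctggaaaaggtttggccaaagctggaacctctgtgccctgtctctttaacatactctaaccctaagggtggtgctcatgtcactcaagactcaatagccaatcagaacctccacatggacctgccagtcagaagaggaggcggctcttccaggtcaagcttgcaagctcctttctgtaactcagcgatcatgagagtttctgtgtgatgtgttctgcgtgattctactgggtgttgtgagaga
Zfp600: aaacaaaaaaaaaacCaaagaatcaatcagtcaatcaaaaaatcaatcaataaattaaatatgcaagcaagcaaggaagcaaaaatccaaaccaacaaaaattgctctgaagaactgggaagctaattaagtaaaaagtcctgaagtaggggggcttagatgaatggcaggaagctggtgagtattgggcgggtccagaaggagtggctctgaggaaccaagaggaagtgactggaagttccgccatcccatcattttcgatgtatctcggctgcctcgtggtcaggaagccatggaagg
Rex2: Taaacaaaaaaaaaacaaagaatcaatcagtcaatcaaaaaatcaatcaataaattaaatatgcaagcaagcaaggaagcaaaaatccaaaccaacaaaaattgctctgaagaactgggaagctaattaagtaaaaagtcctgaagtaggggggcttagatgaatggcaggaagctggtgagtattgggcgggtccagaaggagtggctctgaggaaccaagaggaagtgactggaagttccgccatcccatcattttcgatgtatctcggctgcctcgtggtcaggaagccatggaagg
Gm31714: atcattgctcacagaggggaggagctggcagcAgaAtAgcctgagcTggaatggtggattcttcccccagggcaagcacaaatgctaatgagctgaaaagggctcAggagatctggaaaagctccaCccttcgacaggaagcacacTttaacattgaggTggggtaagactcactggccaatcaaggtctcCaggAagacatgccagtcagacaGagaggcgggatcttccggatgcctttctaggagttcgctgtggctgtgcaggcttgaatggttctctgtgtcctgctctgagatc
Gm46425: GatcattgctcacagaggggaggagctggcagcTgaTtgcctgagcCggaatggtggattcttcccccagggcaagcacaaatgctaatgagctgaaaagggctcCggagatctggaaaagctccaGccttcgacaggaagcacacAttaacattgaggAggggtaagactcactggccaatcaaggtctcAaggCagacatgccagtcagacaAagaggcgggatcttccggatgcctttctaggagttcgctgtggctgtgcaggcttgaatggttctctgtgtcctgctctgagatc
Rsl1 on chromosome 13 (chr13:67172932-67173231, forward strand, GRCm38.p6) is shown as a well-known member. It encodes a repressor of male-specific liver genes, the regulator of sex-limitation, and its promoter shared 50 bases with promoters of 2 other genes.
Rsl1: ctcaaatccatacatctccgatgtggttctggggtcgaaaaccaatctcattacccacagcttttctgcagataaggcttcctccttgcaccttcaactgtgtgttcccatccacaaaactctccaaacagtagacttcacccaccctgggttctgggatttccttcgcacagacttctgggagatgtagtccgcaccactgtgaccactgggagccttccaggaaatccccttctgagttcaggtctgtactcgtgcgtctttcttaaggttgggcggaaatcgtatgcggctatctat

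Many windows of the clusters held no read at all, most of them on chromosome 2. On chromosome 2, 333 of 540 windows (61.7%) were empty in control, 245 (45.4%) in knockout and 233 (43.1%) in both pools. On chromosome 4 the empty windows numbered 177 of 480 (36.9%), 120 and 109 (22.7%). On chromosome 13 they numbered 96 of 540 (17.8%), 32 (5.93%) and 17 (3.15%). The order of the clusters by empty windows was the same in both pools, chromosome 2 first and chromosome 13 last. Over all windows of the autosomes and X, 6.01% were empty in control, 4.81% in knockout and 4.41% in both. Thus the shares on chromosomes 2 and 4 were far above this background. That on chromosome 13 was above it in control and in knockout, and below it for windows empty in both pools. This background is a mean over all windows. Among 954 other autosomal blocks, described below, the median block had 0.4% empty windows, and 88 blocks were emptier than the chromosome 13 cluster. Over the 3 clusters together 359 of 1560 windows (23.0%) were empty in both pools.

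**Figure D1:**
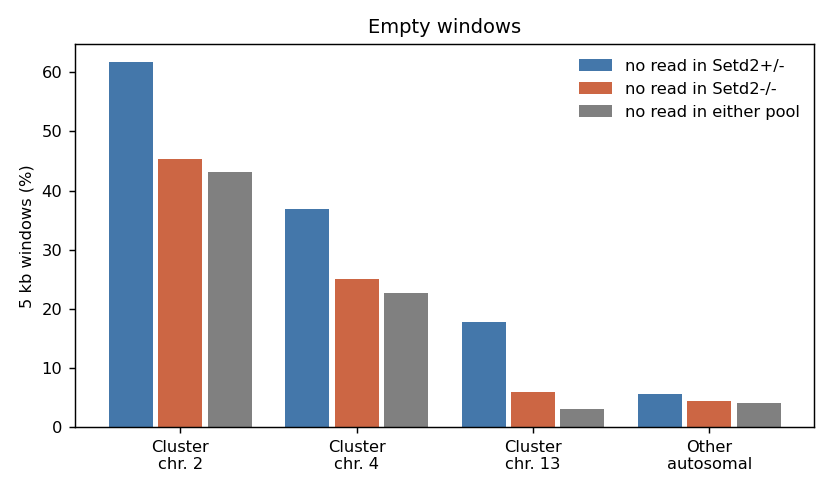
Share of 5 kb windows with no read, in percent (vertical axis, from 0), for the 3 clusters and for all other autosomal windows; blue bars are the Setd2+/- pool, orange bars the Setd2-/- pool and grey bars windows empty in both. The bars fall from 61.7, 45.4 and 43.1% on chromosome 2 to 17.8, 5.93 and 3.15% on chromosome 13, beside 5.67, 4.52 and 4.19% for the other autosomal windows.

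Windows that were empty in only 1 pool were mostly empty in control. On chromosome 2, 100 windows had reads in knockout alone and 12 in control alone, on chromosome 4 the numbers were 68 and 11, and on chromosome 13 they were 79 and 15. The same direction was seen in the other autosomal windows, with 7297 against 1660. An empty window allows at most 3 reads by counting error alone, which is 0.0196 RPKM in control and 0.0204 RPKM in knockout. RPKM is the read density scaled to the length of a bin and the size of the pool, and 1 read in a window is worth 0.00652 RPKM in control and 0.00681 RPKM in knockout. Gaps of the assembly, sequence that the alignment could not place and sequence without H3K27ac give the same empty window and cannot be told apart here. Runs of empty windows reached 100 kb on chromosome 2, from 175300001 to 175400000, and 65 kb on chromosome 4, from 145890001 to 145955000. On chromosome 13 the longest run was 10 kb, from 65455001 to 65465000. Of the 100 kb blocks of each cluster, at least 10 of 20 windows were empty in both pools in 16 of 27 blocks on chromosome 2, 4 of 24 on chromosome 4 and 0 of 27 on chromosome 13. Reads were also sparse inside windows: 7.91% of the 100 bp bins on chromosome 2 had a read in either pool, 22.8% on chromosome 4 and 35.1% on chromosome 13, against 57.8% over other autosomal windows.

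H3K27ac of the clusters was below the genome-wide mean of 0.379 RPKM in both pools. On chromosome 2 the control pool had a mean of 0.0170 RPKM and the knockout pool 0.0596 RPKM, a 3.50-fold difference (95% exact binomial counting interval 3.30 to 3.72, from 1410 and 4723 reads). The mean on chromosome 4 was 0.111 and 0.189 RPKM, a 1.69-fold difference (1.65 to 1.74, from 8199 and 13294 reads). The mean on chromosome 13 was 0.214 and 0.221 RPKM, a ratio of 1.03 (1.01 to 1.05, from 17732 and 17502 reads). Chromosome 2 was thus the poorest cluster with the highest ratio, and chromosome 13 the richest with a ratio near 1. That of chromosome 13 had no stable direction: it was 0.996 when the autosomal means of the pools were set equal. Intervals from reads cover counting error only, not differences between animals or libraries. The other autosomal windows had 0.375 RPKM in control against 0.388 RPKM in knockout, a ratio of 1.04.

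Set among 954 other autosomal blocks of 2.5 Mb, all 3 clusters were low. Only 6 blocks were lower than the chromosome 2 cluster in control and 7 in knockout, 5 had a higher ratio and 8 a larger share of empty windows. For chromosome 4, 15 blocks were lower in control, 68 in knockout, 62 had a higher ratio and 15 were emptier. For chromosome 13, 63 blocks were lower in control, 108 in knockout, and 88 were emptier. A higher ratio was found in 479 blocks, so this cluster lay about the middle of the blocks in ratio. The median block had 0.391 RPKM in control, 0.390 RPKM in knockout, a ratio of 1.03 and 0.4% empty windows. High ratios were common in the poorest blocks: the 8 blocks under 0.05 RPKM in control had ratios from 1.63 to 10.1, with a median of 4.60. The ratio of the chromosome 2 cluster, whose control mean also lay under 0.05 RPKM, fell inside that range. The 45 blocks from 0.05 to 0.2 RPKM had ratios from 0.580 to 2.29, with a median of 1.21, and the ratio of the chromosome 4 cluster lay above that median.

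The neighbourhood of the clusters differed from them in level but shared part of the direction. In the 1 Mb before the chromosome 4 cluster the means were 0.274 and 0.415 RPKM, a ratio of 1.51, and in the 1 Mb after it 0.270 and 0.452 RPKM, a ratio of 1.67, beside 1.69 in the cluster. Neither side had a window empty in both pools. Before the chromosome 2 cluster the means were 0.157 and 0.294 RPKM, a ratio of 1.88, and after it 0.233 and 0.319 RPKM, a ratio of 1.37, both below the ratio of the cluster. Before the chromosome 13 cluster the means were 0.619 and 0.604 RPKM, a ratio of 0.977. After it they were 0.180 and 0.257 RPKM, a ratio of 1.43, and 18 of its 200 windows were empty in both pools, a larger share than in the cluster itself. The higher knockout signal of the chromosome 4 cluster was thus also seen on both of its sides.

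**Figure D2:**
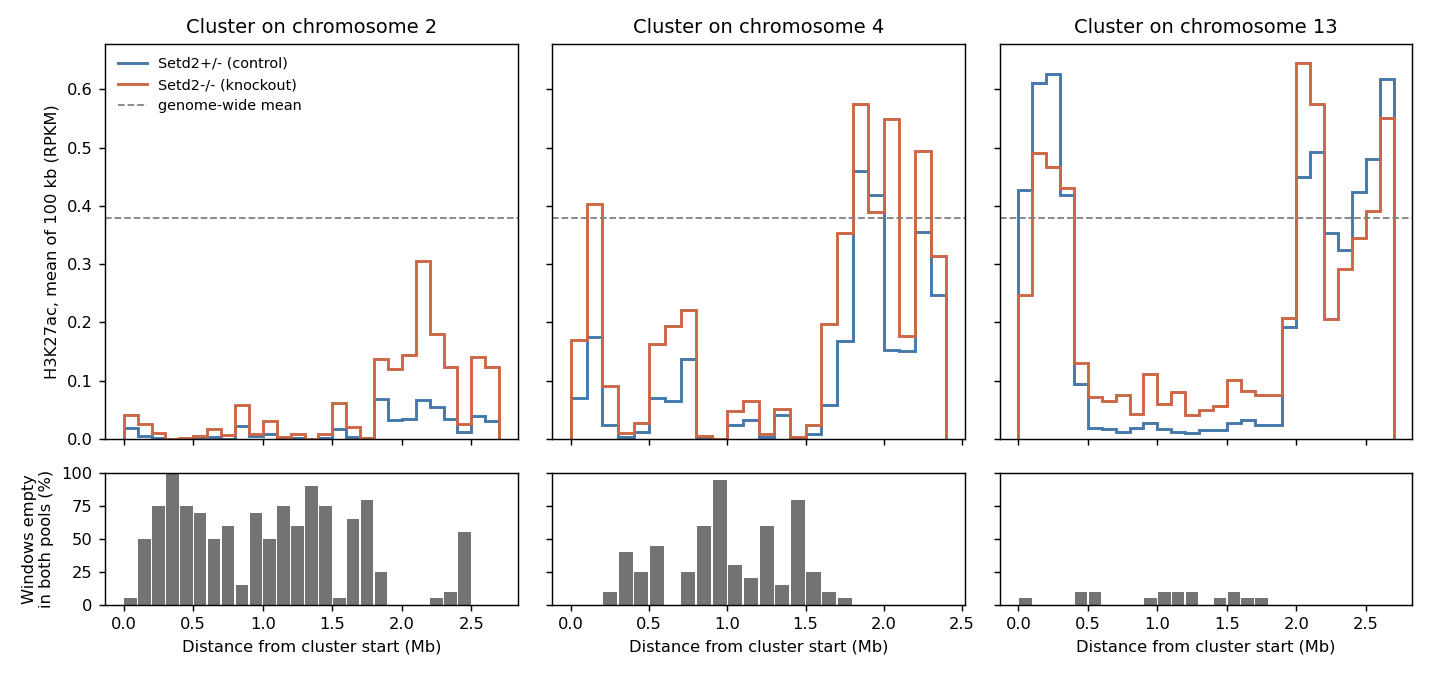
H3K27ac along the 3 clusters as the mean of 100 kb blocks in RPKM (upper panels, Setd2+/- in blue, Setd2-/- in orange, genome-wide mean dashed) and the share of 5 kb windows empty in both pools in percent (lower panels), against distance from the cluster start in Mb. The chromosome 2 cluster stays below the dashed line throughout, and the middle of the chromosome 13 cluster is low between 2 rich ends.

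Along the chromosome 2 cluster, signal was concentrated at its far end. The cluster was divided, after its values were seen, into a first stretch from 175000001 to 176800000 and a second from 176800001 to 177700000. The first had 0.00483 RPKM in control and 0.0171 RPKM in knockout, with 214 of 360 windows empty in both pools. The second had 0.0414 and 0.144 RPKM, with 19 of 180 windows empty. The second was far richer in each pool, but the ratios lay close together, at 3.54 (3.09 to 4.08) and 3.49 (3.27 to 3.73). Of the 27 blocks of 100 kb, 26 were higher in knockout and 1, with no read, was equal. The richest block in knockout, from 177100001 to 177200000, had 0.305 RPKM there and 0.0671 RPKM in control, a ratio of 4.54 (3.90 to 5.31). The richest in control, from 176800001 to 176900000, had 0.0681 RPKM, with 0.137 RPKM in knockout. The poorest in both pools was the block with no read, from 175300001 to 175400000.

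Windows of chromosome 2 with appreciable H3K27ac were few. No window reached the genome-wide mean in control and 15 did in knockout. Calls were made at 2-fold on log2(RPKM + 0.1), which understates changes of low windows, where the average of both pools reached the genome-wide mean. The cluster had 4 such windows. All 4 passed through their knockout level, so they had to be higher in knockout, and their calls are a description only. Over all such windows of the autosomes and X, 11.6% were called higher and 15.2% lower. Over such windows of the autosomes outside the clusters the shares were 12.2% and 13.4%, so including X raised the lower share. The leading window, from 177105001 to 177110000, had 36 control and 291 knockout reads, or 0.235 and 1.98 RPKM. Its ratio was 8.45 (5.96 to 12.3) and its log2 ratio 2.64. It was the richest knockout window of the cluster. Its neighbours on either side, from 177100001 and from 177110001, had 37 and 170 reads and 35 and 92 reads. These 3 windows formed the longest run of called windows on chromosome 2, 15 kb with 0.235 RPKM in control and 1.26 RPKM in knockout. The remaining window, from 176855001 to 176860000, had 53 and 117 reads with a ratio of 2.31 (1.65 to 3.26), and was the richest control window of the cluster at 0.345 RPKM. In the leading window 1 bin held 16.2% of the knockout reads, and its log2 ratio was 2.06 once no bin counted more than 10 reads.

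The chromosome 4 cluster had a poor first part and a richer end. From 145000001 to 146700000 the control mean was 0.0424 RPKM and the knockout mean 0.0986 RPKM, a ratio of 2.32 (2.21 to 2.44), and 108 of 340 windows were empty in both pools. From 146700001 to 147400000 the means were 0.279 and 0.407 RPKM, a ratio of 1.46 (1.41 to 1.51), with 1 of 140 windows empty. This division was also made after the values were seen. Of the 24 blocks of 100 kb, 23 were higher in knockout. The exception, from 146900001 to 147000000, had 0.418 RPKM in control against 0.389 RPKM in knockout, a ratio of 0.929 (0.857 to 1.01). The poorest block in both pools, from 145900001 to 146000000, had 0 and 1 reads. The exception lay between the richest block of both pools, from 146800001 to 146900000 with 0.460 and 0.576 RPKM, and a block from 147000001 to 147100000 that went from 0.153 to 0.549 RPKM, a ratio of 3.59 (3.24 to 3.99). The knockout profile thus had a second rich block where the control had a low one.

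Of 480 windows on chromosome 4, 63 reached the genome-wide mean, 21 of them with a control level below it and 6 with a knockout level below it. Among these, 19 were called higher (30.2%, over all such windows 11.6%) and 1 lower (1.59%, over all such windows 15.2%). Of the 19, 16 passed only through their knockout level, and the 1 lower window passed only through its control level, so that the filter fixed their direction. These counts are a description, and nothing is read from their shares. In the 1 Mb on either side, 20 of 77 and 20 of 76 such windows were called higher and 0 lower. The longest run of higher windows spanned 30 kb from 147005001 to 147035000 and averaged 0.320 RPKM in control against 1.17 RPKM in knockout (295 and 1033 reads). It began with the richest knockout window of the cluster, from 147005001 to 147010000, with 51 control and 247 knockout reads and a ratio of 5.06 (3.73 to 6.99). The highest log2 ratio, 2.63, was at 145135001 to 145140000, with 14 and 159 reads or 0.0912 and 1.08 RPKM. The next, 2.24, was at 146715001 to 146720000, with 42 and 244 reads or 0.274 and 1.66 RPKM. The window called lower lay at 147230001 to 147235000, with 101 and 32 reads, a ratio of 0.331 (0.215 to 0.497) and a log2 ratio of -1.25. The next lowest of the 63 windows, at 146980001 to 146985000, had 129 and 67 reads and a log2 ratio of -0.76. The richest control window, from 146890001 to 146895000, had 241 and 194 reads or 1.57 and 1.32 RPKM, a ratio of 0.841 (0.693 to 1.02) whose interval included 1.

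On chromosome 13 the ratio near 1 joined unlike parts. The middle of the cluster, from 65400001 to 66900000, had 0.0240 RPKM in control against 0.0743 RPKM in knockout, a ratio of 3.09 (2.89 to 3.31), and each of its 15 blocks of 100 kb was higher in knockout, with ratios from 1.40 to 7.41. The first stretch, from 65000001 to 65400000, had 0.521 and 0.408 RPKM, a ratio of 0.784 (0.755 to 0.814). The last, from 66900001 to 67700000, had 0.417 and 0.402 RPKM, a ratio of 0.964 (0.937 to 0.991), and 3 of its 8 blocks were higher in knockout. These limits were again set after the values were seen. High ratios were also found in other poor sequence. The 8 other autosomal blocks under 0.05 RPKM in control had ratios from 1.63 to 10.1, with a median of 4.60. These blocks were longer than the middle and had a median of 63.8% empty windows, against 5.33% empty in both pools in the middle. They are therefore unlike the middle in coverage. Other autosomal windows at 0.02 to 0.05 RPKM in control had a ratio of means of 3.03. The 3.09 of the middle lay inside the range of the blocks. These windows were picked by their control level, whereas the middle is a whole stretch with 92 windows empty in control. The ratios of the windows and of the middle are therefore unlike measures. Whether the middle differed from other sequence of its level was not tested. The richest block in control, from 65200001 to 65300000, had 0.627 RPKM there and 0.466 RPKM in knockout, a ratio of 0.744 (0.693 to 0.798). The richest in knockout, from 67000001 to 67100000, had 0.646 RPKM there and 0.449 RPKM in control, a ratio of 1.44 (1.34 to 1.54). The poorest in both pools, from 66200001 to 66300000, held only 29 and 122 reads, and its ratio was 4.40 (2.91 to 6.84). The middle thus lay far below both ends in each pool, and its level in knockout was nearer to that of the ends than in control. Of its 300 windows, 16 (5.33%) were empty in both pools, although 92 were empty in control. This share was close to the mean of 4.41% over all windows. It was well above the 0.4% empty windows of the median among the 954 other autosomal blocks. Bins with a read made up 4.09% of the middle in control and 9.58% in knockout, against 55.6% and 35.8% in the first stretch. The middle thus had more covered bins in knockout and the first stretch fewer. All autosomes, the clusters included, also had fewer, with 44.0% in control and 33.6% in knockout.

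Of 540 windows on chromosome 13, 125 reached the genome-wide mean, 19 of them with a control level below it and 31 with a knockout level below it. Among these, 9 were called higher (7.20%, over all such windows 11.6%) and 13 lower (10.4%, over all such windows 15.2%). All 9 higher windows passed only through their knockout level and 12 of the 13 lower ones only through their control level, so here too the filter fixed the direction and nothing is read from the shares. All but 1 of the 125 windows lay in the first and last stretches. The highest log2 ratios among the 125 belonged to neighbouring windows, from 67175001 to 67180000 with 24 and 163 reads (0.156 and 1.11 RPKM, log2 ratio 2.24) and from 67180001 to 67185000 with 30 and 127 reads (log2 ratio 1.71). The lowest among the 125 was at 65240001 to 65245000, with 116 and 15 reads or 0.756 and 0.102 RPKM, a ratio of 0.135 (0.0733 to 0.232) and a log2 ratio of -2.08. The next lowest of them, at 65065001 to 65070000, had 123 and 32 reads and a log2 ratio of -1.50. Some windows left out by the filter had lower ratios, down to a log2 ratio of -2.83 from 65250001 to 65255000, with 0.710 RPKM in control and 0.0136 RPKM in knockout. This window was picked after its value was seen. The richest window in knockout, from 65200001 to 65205000, had 197 and 249 reads or 1.28 and 1.70 RPKM. The richest window in control, from 67125001 to 67130000, had 203 and 143 reads or 1.32 and 0.974 RPKM. No run of called windows on chromosome 13 exceeded 10 kb in either direction.

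**Figure D3:**
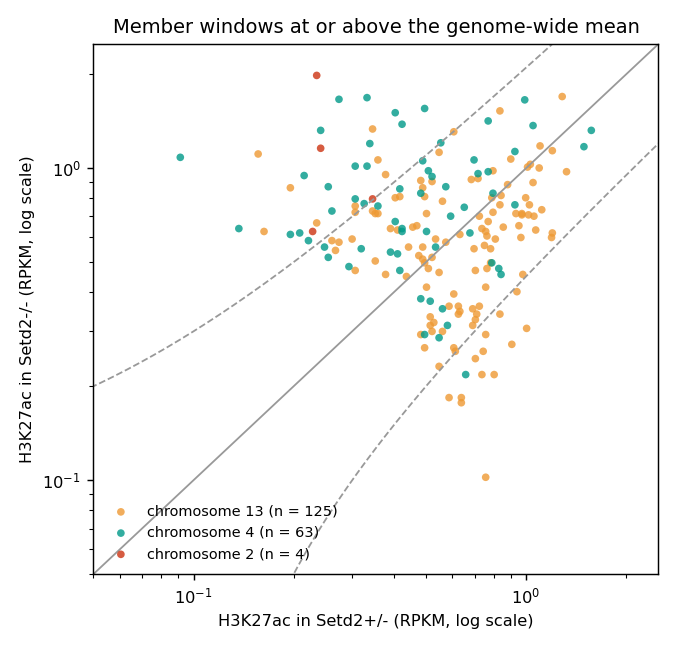
H3K27ac of the member windows that reached the genome-wide mean over both pools, Setd2+/- (horizontal axis) against Setd2-/- (vertical axis), both in RPKM on log scales; points are 5 kb windows coloured by cluster, the solid line marks equality and the dashed lines a 2-fold difference of RPKM + 0.1. The 4 windows of chromosome 2 lie on or above the upper dashed line, 19 of 63 from chromosome 4 do, and 9 of 125 from chromosome 13.

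Without a filter on level, called windows were nearly all in 1 direction on chromosomes 2 and 4. On chromosome 2, 55 of 540 windows (10.2%) were higher and 0 lower, and on chromosome 4, 52 of 480 (10.8%) were higher and 1 lower. On chromosome 13, 53 of 540 (9.81%) were higher and 27 (5.00%) lower. Over all windows the shares were 8.58% higher and 13.1% lower, and over the other autosomal windows 9.02% and 11.6%. The higher share was thus near the background in each cluster. On the scale of log2(RPKM + 0.1) a window under 0.1 RPKM in control cannot be called lower, and most member windows were under it. Of those at or above 0.1 RPKM in control, 0 of 22 on chromosome 2 were lower, 1 of 135 on chromosome 4 (0.741%) and 27 of 215 on chromosome 13 (12.6%), against 17.4% of all windows at that level. The same windows were higher in 10 of 22, 24 of 135 (17.8%) and 10 of 215 (4.65%), against 7.60%. Over the other autosomal windows at 0.1 RPKM or more, 15.5% were lower and 8.04% higher. Chromosomes 2 and 4 had more higher and fewer lower windows than these backgrounds, and chromosome 13 had fewer of both. Levels were not matched above 0.1 RPKM. Just above it a lower call needs a very low knockout level, and 14 of the 22 chromosome 2 windows lay at 0.1 to 0.2 RPKM. No chromosome 2 window reached 0.4 RPKM in control. Of the 369961 other autosomal windows, 144201 lay at 0.4 to 0.8 RPKM and 56888 at 0.8 RPKM or more. The part of level in these differences was not tested.

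Because the ratio of the pools depended on the control level everywhere, members were set beside other autosomal windows of the same control level. The classes are cut on control reads, which carry counting error, and its part in this dependence was not tested. Among windows with a read but under 0.02 RPKM in control, the other autosomal windows had a median of 0.0613 RPKM in knockout and the 3 clusters 0.0477, 0.0375 and 0.0409 RPKM on chromosomes 2, 4 and 13. At 0.02 to 0.05 RPKM the medians were 0.0886 RPKM for other windows and 0.0954, 0.0817 and 0.0817 RPKM for the clusters. In these poorest classes the clusters were thus below the autosomal level, except for chromosome 2 at 0.02 to 0.05 RPKM. The direction turned among windows with reads in at least 20% of bins over both pools. Under 0.02 RPKM the medians were then 0.163 (11 windows), 0.181 (2 windows) and 0.187 RPKM (10 windows) for the clusters and 0.150 RPKM for other windows. At 0.02 to 0.05 RPKM they were 0.170, 0.160 and 0.170 RPKM against 0.129 RPKM. Coverage counts knockout reads, so this limit also selects on the knockout level, and these classes have no settled direction. At 0.1 to 0.2 RPKM the medians were 0.163 RPKM for other windows, 0.296 RPKM on chromosome 2 (14 windows), 0.238 RPKM on chromosome 4 (44 windows) and 0.184 RPKM on chromosome 13 (35 windows). At 0.2 to 0.4 RPKM they were 0.266, 0.497 (8 windows), 0.388 (48 windows) and 0.286 RPKM (57 windows) in the same order. Chromosome 4 lay above other autosomal windows in every class from 0.05 RPKM upward, reaching 0.674 against 0.463 RPKM at 0.4 to 0.8 RPKM. Chromosome 13 lay below them there, at 0.361 RPKM (89 windows). These medians describe 2 pools, and neighbouring windows are not independent.

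**Figure D4:**
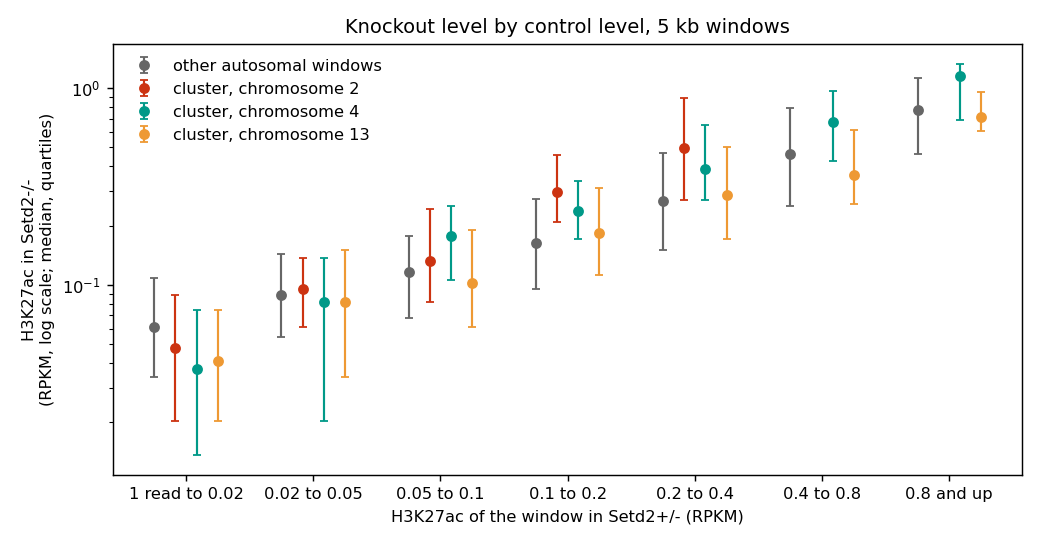
Knockout H3K27ac of 5 kb windows (median with quartiles, RPKM, log scale) by class of control H3K27ac (RPKM), for other autosomal windows in grey and for the clusters on chromosomes 2 (red), 4 (green) and 13 (orange). In the class of 0.2 to 0.4 RPKM the medians are 0.266, 0.497, 0.388 and 0.286 RPKM, and in the lowest class all 3 clusters lie below the grey point at 0.0613 RPKM, an order that turns among windows with reads in at least 20% of bins.

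Within the clusters, windows rich in 1 pool tended to be rich in the other. Across windows with a read in either pool, Pearson's r of log2(RPKM + 0.1) was 0.722 on chromosome 2 (307 windows), 0.847 on chromosome 4 (371 windows) and 0.815 on chromosome 13 (523 windows), and Spearman's rho was 0.669, 0.839 and 0.792. Over other autosomal windows r was 0.682 and rho 0.684. Windows of a region share their mappable share and base composition in both pools, and each cluster is divided into poor and rich stretches. Within stretches, r was 0.575 and 0.672 on chromosome 2 (rho 0.299 and 0.592), and 0.847 and 0.758 on chromosome 4 (rho 0.717 and 0.765). On chromosome 13 it was 0.480 in the first, 0.518 in the middle and 0.768 in the last stretch (rho 0.467, 0.463 and 0.726). No single bin held a large part of a cluster's reads, but the share of reads in all pile-ups was not measured. The richest bin of a cluster held 1.28% of its control and 1.33% of its knockout reads on chromosome 2, and under these shares on chromosomes 4 and 13. Counting at most 10 reads per bin gave ratios of 3.26, 1.58 and 0.9996. Single windows moved more: the leading window of chromosome 2 went from 1.98 to 1.29 RPKM in knockout. With this limit, the 32 member windows called higher became 23 and the 14 called lower became 15.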

How the data were processed

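H3K27ac tracks of full-grown oocytes labelled Setd2+/- and Setd2-/- were used, each pooling 2 replicates, and the other 54 of 58 samples were not analysed here. The deposited values are RPKM per 100 bp bin, made by the authors, and bins without reads are not listed. The unit was inferred from the totals of the values. The submitters' processing notes name mm9 and Bowtie2 2.2.2. Duplicate removal, the handling of reads with several matches and any input subtraction are steps not given in the sources used here. Each could change values in duplicated sequence.

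Reads were recovered as multiples of the value of 1 read (0.326 RPKM in control, 0.341 RPKM in knockout, tolerance 0.005 RPKM), 30694806 and 29367645 in all. Signal was averaged over 5 kb windows from the chromosome start, on autosomes and X. Windows whose average of both pools reached the genome-wide mean were called at 2-fold of log2(RPKM + 0.1). Intervals are exact binomial (Clopper-Pearson, 95%). Windows were named by rule: in each cluster the 2 windows highest and the 2 lowest in log2 ratio among these, the richest window in each pool, the longest runs of empty and of called windows, and the richest and poorest 100 kb blocks. The regions, lists and rules were chosen with earlier results of these data known. Alternatives were other pseudocounts, filters, folds, window sizes and scalings, a limit of 10 reads per bin, medians, and windows with reads in at least 20% of bins. The code was tested on simulated data. Changes of windows were planted only at 0.4 RPKM or more in control, so the poorer windows, most of the members, were not covered. Promoters were aligned with edlib 1.3.9.post1. The other software was SciPy 1.17.1, NumPy 2.4.6, pandas 2.3.3 and matplotlib 3.10.9 under Python 3.11.15. Protein sequences were not analysed here.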

Additional observations from a re-analysis of the deposited data

How the results depend on the processing

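No paired analysis was possible because the replicates of a genotype come in 1 joint track, so that leaving out a replicate could not be done either. The knockout over control ratio of the chromosome 2 cluster, 3.50, stayed between 3.26 and 3.49 in the 5 alternatives, the lowest with at most 10 reads per bin. That of chromosome 4, 1.69, was 1.64 with autosomal means set equal, 1.58 with at most 10 reads per bin, 2.21 by medians over windows with reads in both pools and 1.64 over windows with reads in at least 20% of bins. That of chromosome 13, 1.03, turned to 0.996 with autosomal means set equal, 0.9996 with at most 10 reads per bin and 0.969 over windows with reads in at least 20% of bins, and was 1.01 with the median log2 ratio set to 0 and 1.57 by medians. The 32 higher and 14 lower member windows became 13 and 1 with a pseudocount of 0.5, 160 and 28 with no filter, 9 and 0 with a filter at 2 times the mean, and 62 and 39 at 1.5-fold. Windows of 2 kb gave 112 higher and 62 lower, and windows of 10 kb gave 13 and 4, with other numbers of windows by construction. The cause of the other changes was not tested. The other 5 alternatives stayed within 1.5 times of both counts. The 359 windows empty in both pools became 1343 of 3900 (34.4%) in 2 kb windows and 127 of 780 (16.3%) in 10 kb windows. Depth limits what the poorest windows can show: 505 of 1560 held at most 2 reads over both pools. No input and no annotation of mm9 was used here.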
